A study of Mus musculus with 14 samples.

Results

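The PltLike control cells are 24 single cells of 1 sample, taken as every cell that the deposited cell table gives the type PltLike, out of 648 cells in 14 samples. They were set against the 22 cells of the 1 sample of cultured B16F10, a metastatic mouse melanoma line of C57BL/6J background. The labels give PltLike the genotype C57BL/6J, female sex, an age of 6 to 8 weeks, the treatment naive and the tissue Control, and do not spell the name out. The culture carries B16F10 as both genotype and treatment, with no age or sex, and its cell type and batch labels both read CTC. Cells were sorted singly by FACS on tumor and host markers, and their genomic DNA was amplified by MALBAC, a method that copies the genome of 1 cell in looping cycles. As host reference served 21 white blood cells (WBC) of naive female C57BL/6J mice of the same age range, all in 1 sample. Circulating tumor cells (CTC) from 5 samples of female C57BL/6J mice injected with fluorescently labelled B16F10 gave the spread between samples, with 3 cells in C1L, 6 in C1N, 15 in C1R, 14 in C2R and 5 in C3R. With 1 sample on each side there is no test of PltLike against culture, and every SD below is over cells of 1 sample unless CTC samples are named.

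B16F10 cells are aneuploid: whole chromosomes and long segments are present in more or fewer copies than in the diploid host. In a single cell such a gain or loss appears as a shift of the read coverage of many neighbouring genome bins. Cells of a line also differ from each other when a chromosome is gained or lost in some of them, and these subclonal differences can be read only cell by cell. A host cell gives a flat profile, so that bins where the line has lost DNA show how much host-like signal a cell carries.

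The deposited values are a normalised coverage signal per bin and cell, with no read counts, so that depth is unknown and precision is read from the bin-to-bin noise. The deposited autosomal medians lay at 3.51 to 3.77 in PltLike and 3.69 to 3.84 in the culture, against 1.73 to 1.93 in naive WBC. All 46 PltLike and culture cells thus stood at the same coverage level. Every level below was therefore set against the median of chromosomes 1 to 19 of its own cell, either as a log2 value, where 0 is that median, or as a relative level, where 1 is that median. A coverage level shared by both sets does not give the number of genome copies, because the submitters' normalisation is not stated.

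The PltLike cells carried the profile of the B16F10 line and not that of the naive host which their labels name. The copy-number score says where the autosomal profile of a cell lies between the mean naive WBC profile (0) and the mean culture profile (1). The score was 0.911 ± 0.066 (SD, n = 24 cells) in PltLike, with a lowest cell at 0.798, a median of 0.933 and a highest cell at 1.02. In the culture it was 0.980 ± 0.0481 (n = 22 cells), with each cell scored on an axis built without it, and cells ran from 0.866 to 1.08. Naive WBC had a mean of 0.0154 and none was above 0.0472, so no PltLike cell overlapped the host cells. PltLike and culture cells did overlap, with 7 of 24 PltLike cells below the lowest culture cell and 0 above the highest. The means of the 5 CTC samples ran from 0.886 to 1.00, a range that holds both values. Across 4120 autosomal bins the mean PltLike profile correlated with the mean culture profile at r = 0.920, with CTC samples at 0.890 to 0.965 and with naive WBC at 0.658, where the bins share their mappability and base composition. CDP and Duplike, the other control classes with unexplained names, had lower mean scores of 0.696 and 0.754. The plot of score and noise by cell shows these sets.

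**Figure D1:**
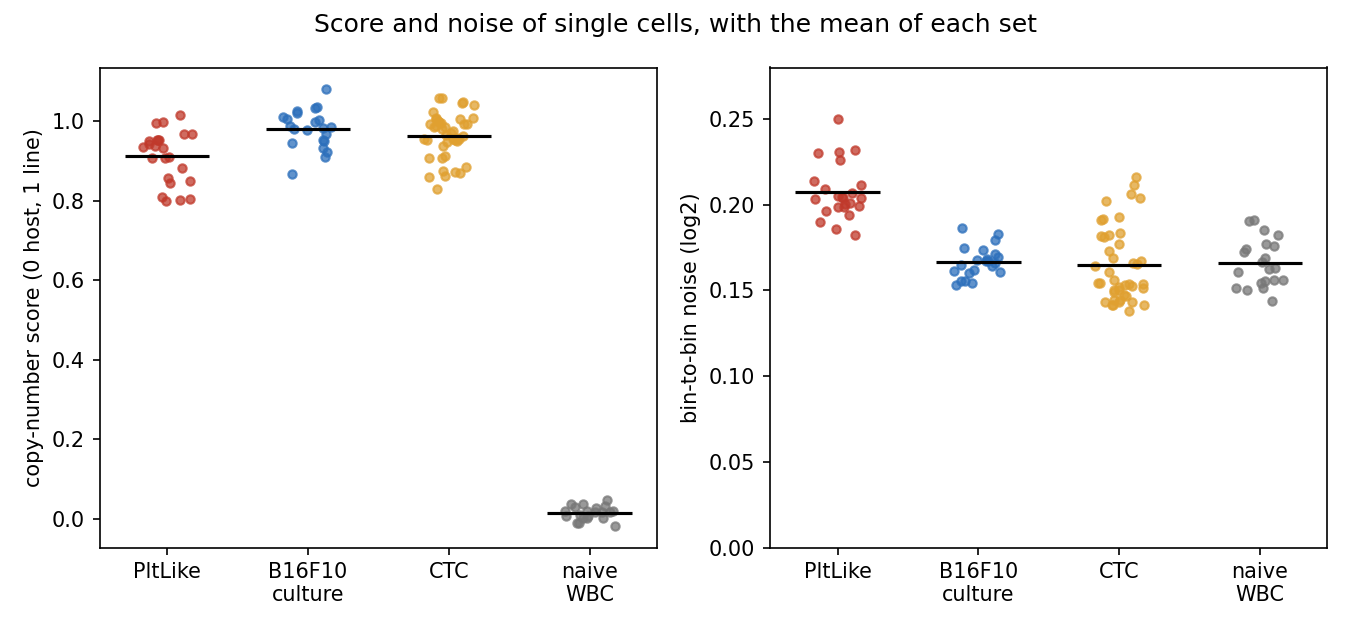
Copy-number score (left, 0 for the mean naive WBC profile and 1 for the mean culture profile) and bin-to-bin noise in log2 (right) of single cells of PltLike (24), B16F10 culture (22), CTC (43) and naive WBC (21), with 1 point a cell and a bar at the mean of each set. PltLike scores lie between 0.798 and 1.02 beside those of the culture, while the mean PltLike noise of 0.207 lies above the culture mean of 0.167.

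Whole-chromosome levels of PltLike and culture lay close together. PltLike cells had the gain of chromosome 6, at a log2 level of 0.50 ± 0.10 against 0.56 ± 0.08 in the culture and 0.00 in naive WBC. They had the losses of chromosome 14 (-0.41 ± 0.11 against -0.40 ± 0.06) and of chromosome 18 (-0.35 ± 0.14 against -0.37 ± 0.05). Smaller gains on chromosomes 1 (0.14 against 0.15), 3 (0.19 in both) and 11 (0.11 against 0.12) were present on both sides. X stood at -1.13 ± 0.09 in PltLike and -1.22 ± 0.08 in the culture. Over the 19 autosomes the median absolute difference of means was 0.0120 in log2, and 16 of 19 differed by less than 0.05. For comparison, each CTC sample against the same culture gave a median absolute difference of 0.0142 to 0.0786.

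Chromosome 13 was the autosome with the largest difference. It stood at -0.11 ± 0.19 in PltLike, with cells from -0.38 to 0.30, and at 0.00 ± 0.13 in the culture, with cells from -0.33 to 0.28. The difference of 0.113 is smaller than the SD over cells in either set. The CTC sample means ran from -0.21 to -0.01, so PltLike lay inside their range and the culture just above it. Only C1N, with 6 cells, lay below PltLike, and the next lowest sample, C3R, stood at -0.108 against -0.111 in PltLike. Chromosomes 6 and 7 followed, with PltLike minus culture at -0.06 and -0.05. There too PltLike lay inside the CTC range through a small sample, with only C1L (3 cells, 0.47) below it on chromosome 6. On chromosome 7 only C1N, at -0.14, was below it. On none of 20 chromosomes did the PltLike and culture cells fail to overlap. PltLike means lay inside the range of the 5 CTC sample means on 14 of 19 autosomes, and culture means on 15 of 19.

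PltLike cells varied more among themselves than their means differ from the culture. The SD over cells had a median of 0.101 over the autosomes, against 0.0708 in the culture and 0.0347 in naive WBC, and it was larger than that of the culture on 11 of 19 autosomes. The PltLike spread was wider on chromosomes 1, 2, 7, 14 and 18, at 1.96 to 2.76 times that of the culture. It was narrower on chromosomes 9, 11 and 12, at 0.495 to 0.552 times. Single cells weigh on these ratios. On chromosome 18 the PltLike cells ran from -0.85 to 0.10. The lowest culture cells stood at -0.27 on chromosome 9 and -0.22 on chromosome 11. Chromosome 19 had the widest spread on both sides, with an SD of 0.223 in PltLike and 0.257 in the culture.

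**Figure D2:**
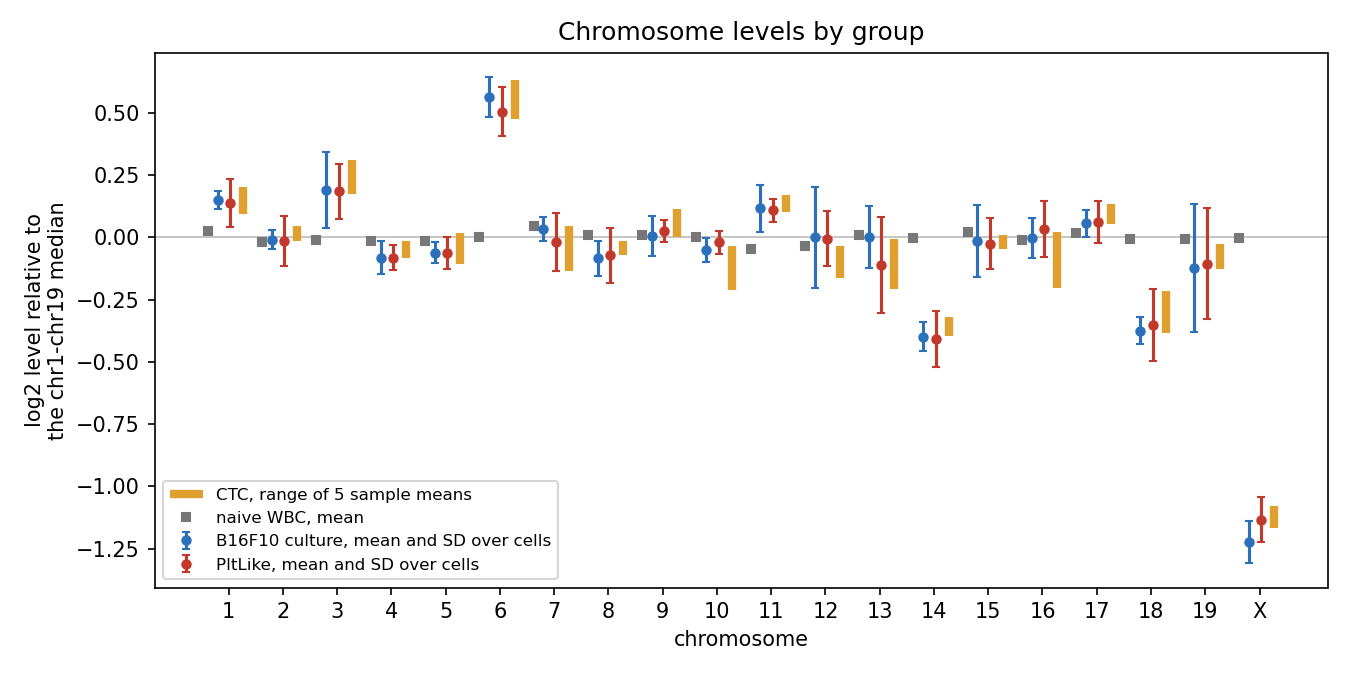
Log2 level of each chromosome relative to the chr1-chr19 median of the cell, with points and bars for the mean and SD over PltLike (24) and culture (22) cells, thick bars for the range of the 5 CTC sample means and squares for the naive WBC mean. Chromosome 6 stands near 0.50 in PltLike and 0.56 in the culture, and chromosome 13 shows the largest autosomal difference, at -0.11 against 0.00.

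The segments that set the line apart from its host were present in PltLike. At a log2 difference of at least 0.3 between culture and naive WBC over at least 10 bins, 29 runs of bins were found, 9 higher and 20 lower in the culture, with X included. All 29 had the same sign in PltLike minus naive WBC. The PltLike difference came to 47.3% to 121% of that of the culture with a median of 89.6%, and 21 of 29 runs lay between 80% and 120%. In 15 runs every PltLike cell lay past the range of naive WBC cells in the direction of the line. These runs were chosen on the culture values, which favours a larger difference there than in PltLike. Close to the size in the culture were the gain at chr1:25999078-64163925 (0.54 in PltLike against 0.55) and the loss at chr5:84410385-116947591 (-0.40 against -0.41). The loss at chr14:1-52353918 was larger in PltLike than in the culture (-0.54 against -0.44). The smallest share, 47.3%, was the loss at chr8:83834672-89109781, at -0.17 in PltLike against -0.37, which 14 of 24 cells showed past the host range. On distal chromosome 10 the losses at chr10:92854304-100302821 and chr10:103559453-130694993 came to 61.4% and 67.1%.

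Bin by bin, 763 of 4376 bins, or 17.4%, differed by at least 0.2 in log2 between the means of PltLike and culture. The count splits into 391 bins (8.94%) higher and 372 (8.5%) lower in PltLike. The CTC samples measured against the same culture gave 18.3% in C1L, 15.7% in C1N, 6.97% in C1R, 1.94% in C2R and 10.8% in C3R. Only C1L, with 3 cells, was above the PltLike share. C1R and C2R, which with 15 and 14 cells come nearest to PltLike in cell number, were well below it. The comparisons share the culture cells, and fewer cells go with noisier means. X held the densest differences, with 100 bins higher and 16 lower of 256. On chromosome 13, 52 of 201 bins were lower and 6 higher, and on chromosome 8, 42 of 215 were higher and 13 lower.

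On a running median of 5 bins, 8 runs of at least 10 bins were found, each of 10 to 31 bins. Most of the 763 bins lay outside these runs. Runs were chosen on PltLike minus culture, and the CTC differences given for them use the same culture cells. That choice favours CTC differences of the same direction. The lowest run was chr12:17742574-24383592, with 42 protein-coding genes, where PltLike was lower by a mean of 0.42 in log2. Its relative level was 0.491 ± 0.0959 in PltLike, 0.717 ± 0.131 in the culture and 0.720 in naive WBC, and 14 of 24 PltLike cells lay below the lowest culture cell. All 5 CTC samples were also lower than the culture there, by -0.29 to -0.15, and the culture mean stands at that of the host. This run lies in bins that are low in the host as well, and the part of such bins in the difference was not tested. Of 179 autosomal bins with a naive WBC level under 0.8, 43 were lower in PltLike and 39 higher, against 277 and 249 of 3748 bins between 0.8 and 1.2. Among 193 bins over 1.2, 36 were lower and 3 higher, an imbalance that was not tested.

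Chromosome 13 held a pair of runs, both lower in PltLike. The first, chr13:56645498-61980097 with 45 protein-coding genes, differed by -0.28, and the relative level was 0.899 in PltLike and 1.09 in the culture. The second, chr13:68654883-76154271, differed by -0.33, at 0.859 in PltLike and 1.04 in the culture. It holds 50 protein-coding genes, among them Tert, the catalytic subunit of telomerase, named here after the values were seen. The 5 CTC samples were lower than the culture in both runs, by -0.23 to -0.10 in the first and by -0.25 to -0.08 in the second.

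On chromosome 8 the run chr8:91205922-102000062, with 68 protein-coding genes, was higher in PltLike by 0.26. The CTC samples differed from the culture by -0.04 to 0.13 in it, below the PltLike value in every sample. On X, chrX:23839736-35290564 was lower in PltLike by 0.30, in bins whose naive WBC level was only 0.462. Distal X held the other 3 runs, all higher in PltLike: chrX:127989099-146870226 by 0.29, chrX:150792844-160841310 by 0.30 and chrX:163017421-171031299 by 0.21. The CTC samples were above the culture in all 3, by 0.02 to 0.23.

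The distal chromosome 8 mean covers cells in 3 separate states. Relative levels in this run fell into a low group up to 0.833, a middle group from 1.09 to 1.30 and a high group from 1.57 in PltLike, and limits of 0.95 and 1.4 were set in the gaps after the values were seen. Of 24 PltLike cells, 13 were low (54.2%, exact Clopper-Pearson 95% interval 32.8% to 74.4%), 7 middle and 4 high (16.7%, 4.74% to 37.4%). Of 22 culture cells, 18 were low (81.8%, 59.7% to 94.8%), 4 were middle and 0 were high, which allows a share of up to 13.6% by a limit of 3 cells and of 15.4% by the exact interval. Among 43 CTC, 34 were low, 8 middle and 1 high, and the high cell came from C1R. Low cells had nearly the same level in both sets, with a median of 0.767 in PltLike and 0.755 in the culture, and so had middle cells, with 1.21 in both. A first choice of limits, in log2 over a longer region, had cut through a group of values and counted 13 low, 5 middle and 6 high PltLike cells, with 18, 4 and 0 in the culture. The mean difference thus goes with the numbers of cells in each state. The run itself was chosen for its PltLike minus culture difference, which favours unlike numbers between the sets. Here and below, intervals reflect counting error alone, since all cells on a side come from 1 sample.

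Chromosome 13 also split PltLike into states. At a log2 level of -0.25 or lower, 9 of 24 PltLike cells were low (37.5%, 18.8% to 59.4%), at -0.38 to -0.28, against 1 of 22 culture cells (4.55%, 0.115% to 22.8%), at -0.33. The PltLike cell at -0.38 was not low throughout. Against its own set it was higher by 0.69 at chr13:1-29097048 and lower by 0.68 at chr13:97598182-120421639. In CTC the same limit, set after the values were seen, gave 5 of 43 cells, with 4 of 6 in C1N, 1 of 5 in C3R and 0 in C1L, C1R and C2R. Over the CTC samples, which hold few cells each, the share thus ran from 0% to 66.7%. The states of both chromosomes crossed in PltLike: of the 9 cells low on chromosome 13, 5 were low, 3 middle and 1 high on distal chromosome 8. All 5 CTC and the 1 culture cell that were low on chromosome 13 were low on distal chromosome 8. So were 34 of all 43 CTC and 18 of all 22 culture cells. For CTC this rests on the limit of -0.25. The 1 CTC high on distal chromosome 8, of C1R, stood at -0.247 on chromosome 13, just above that limit. A slightly looser limit adds this cell, and the states then cross in CTC as well. On chromosome 12 the 5 CTC had a median of -0.27 and the 9 PltLike cells of -0.01. Cells low on chromosome 13 were thus not alike on chromosome 12. Chromosome 3 had a median of 0.11 in the 9 PltLike cells and 0.06 in the 1 culture cell, below the medians of 0.23 and 0.27 over all cells of their sets. In the 5 CTC chromosome 3 was lower as well, with a median of 0.14 against 0.28 in the other CTC. The 9 PltLike cells scored 0.852 on average, with a range of 0.798 to 0.943.

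A combined state joined several chromosomes. In 2 PltLike cells and 4 culture cells, chromosome 3 was low (at most 0.05) while chromosomes 12 and 15 were high (at least 0.15). In the PltLike cells chromosome 3 stood at -0.04 and 0.01, chromosome 12 at 0.19 and 0.27 and chromosome 15 at 0.23 and 0.25. In the culture cells chromosome 3 ran from -0.13 to -0.02 and chromosome 15 from 0.18 to 0.31. All 6 were middle on distal chromosome 8, and chromosome 13 stood at 0.25 and 0.30 in the PltLike cells and at -0.07, 0.22, 0.25 and 0.28 in the culture cells. No CTC of 43 met these limits, which allows up to 6.98% by the limit of 3 cells and 8.22% by the exact interval. The limits were set after the values were seen. Made stricter by 0.05 each, they leave 0 PltLike and 2 culture cells, and made looser by 0.05 they add 1 CTC of C2R, with chromosome 3 at -0.04, chromosome 12 at 0.14, chromosome 15 at 0.28 and chromosome 13 at 0.22. All 4 middle culture cells held the combined state, whereas 5 of the 7 middle PltLike cells did not.

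**Figure D3:**
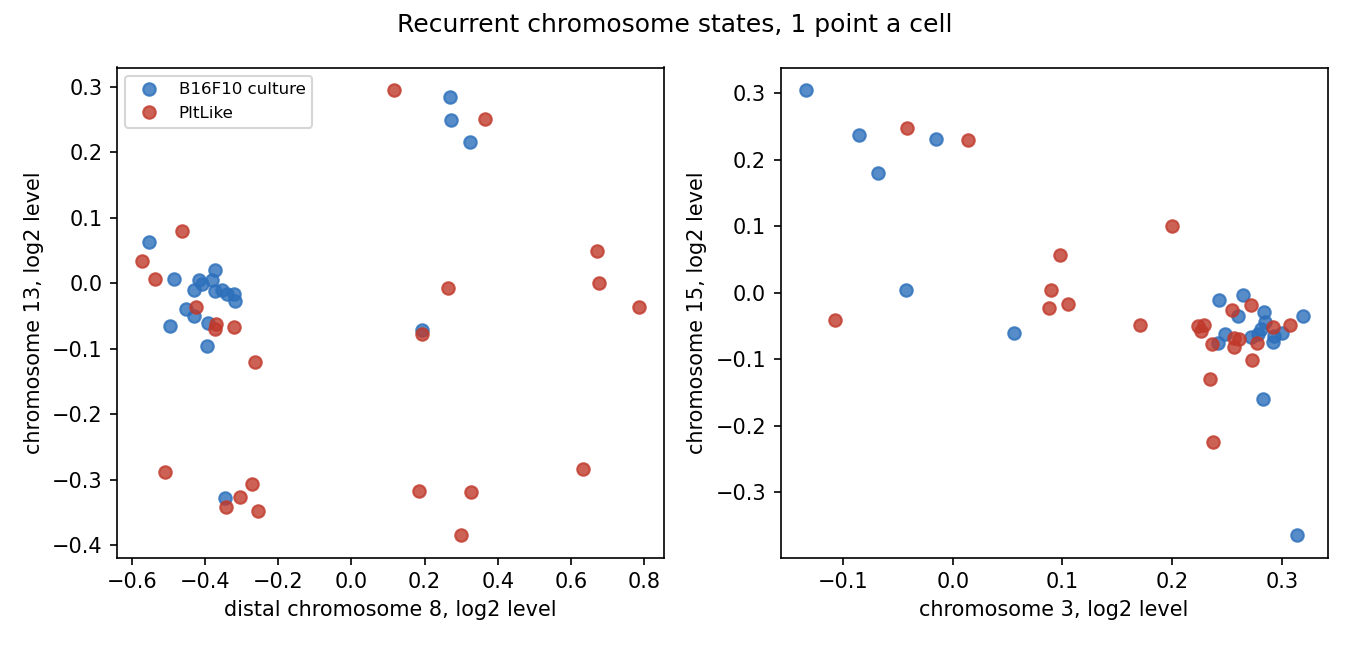
Log2 levels of single PltLike (24) and culture (22) cells, 1 point a cell, for chromosome 13 against distal chromosome 8 (left) and chromosome 15 against chromosome 3 (right). On distal chromosome 8 PltLike cells fall into groups at -0.57 to -0.26, 0.12 to 0.36 and 0.63 to 0.79, and 9 PltLike cells and 1 culture cell lie at -0.28 or lower on chromosome 13.

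Changes of chromosome levels in single cells were counted as levels at least 0.3 in log2 from the median of the cell's own set. A level is the median of the bins, so it does not tell a change of the whole chromosome from a partial one. PltLike had 17 such levels in 9 of 24 cells (37.5%, 18.8% to 59.4%), 12 lower and 5 higher. The culture had 15 in 10 of 22 cells (45.5%, 24.4% to 67.8%), 11 lower and 4 higher. Naive WBC had 0 in 21 cells, which allows up to 14.3% of cells by the limit of 3 cells and 16.1% by the exact interval. The intervals of PltLike and culture overlap widely at these cell numbers. Chromosome 19 was involved in 4 PltLike cells, at levels of -0.82, -0.46, 0.36 and 0.40, and in 3 culture cells, at -0.99, 0.35 and 0.47. Chromosome 3 was involved in 4 culture cells and 1 PltLike cell. Chromosomes 2, 7, 14, 17 and 18 were off in at least 1 PltLike cell and in no culture cell. Conversely, chromosomes 9, 11, 12 and 15 were off in at least 1 culture cell and in no PltLike cell. Neither difference was tested.

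A few PltLike cells carried most of these levels. In 1 cell 5 chromosomes were off: chromosome 14 at -0.81, chromosome 7 at -0.32, chromosomes 16 and 17 at -0.27, and chromosome 18 at 0.10, where the set stands at -0.35. Its score was 0.848 and its noise 0.194, below the PltLike median noise of 0.204. Another cell had chromosome 18 at -0.85 and chromosome 3 at -0.11. In shorter segments, runs of at least 20 bins off the own set were found in 13 of 24 PltLike and 12 of 22 culture cells, 45 and 25 runs that cover 1136 and 731 Mb in sum. Chromosome 8 gave the most frequent of these in PltLike, with a higher run in 8 cells, in 7 of them over the distal segment. Naive WBC had none.

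**Figure D4:**
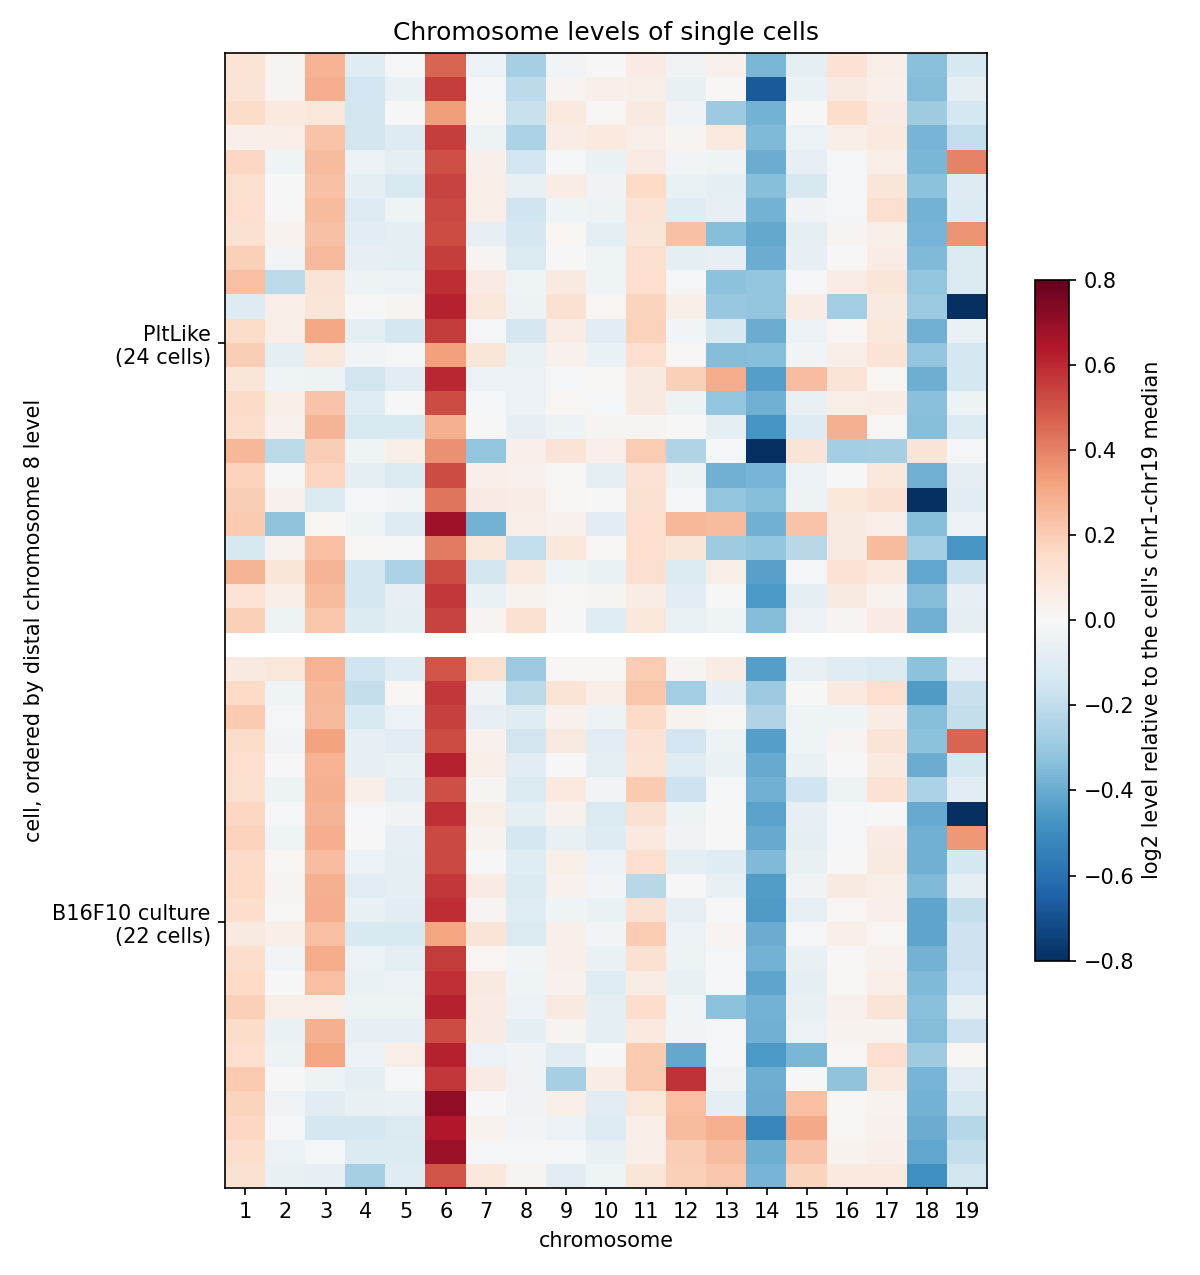
Log2 levels of chromosomes 1 to 19 (columns) in each PltLike (24) and culture (22) cell (rows, ordered within each set by the distal chromosome 8 level), relative to the chr1-chr19 median of the cell. Chromosome 6 is high and chromosomes 14 and 18 are low in nearly every row, while single rows stand out on chromosome 19, where PltLike levels run from -0.82 to 0.40.

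Host-like signal was read at the X bin where the line differs most from its host. This bin, chrX:87239364-87785367, lies in Il1rapl1, a large gene for a synaptic receptor of the interleukin-1 receptor family, and culture minus naive WBC is -3.00 in log2. The relative level was 0.228 ± 0.0689 in PltLike, with a lowest cell at 0.112, a median of 0.217 and a highest cell at 0.436. In the culture it was 0.102 ± 0.0222, from 0.0643 to 0.153, and in naive WBC 0.993 ± 0.0754. Of 24 PltLike cells 21 lay above the highest culture cell, so the sets barely overlapped. The bin was chosen for its low culture value, which pulls that value down. The CTC samples, not used in the choice, had means of 0.129 to 0.205, all between the culture and PltLike. Over the 24 PltLike cells this reading went with noise at Pearson's r = 0.566 and Spearman's rho = 0.38, and at r = 0.321 without the 1 cell highest in both. In the culture r was -0.178. These are descriptions, and the part of noise in the result was not tested. The 2 PltLike cells with noise below the median of both sets had a mean of 0.151.

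Other regions differed in how they separated the sets. Distal X, chosen for its difference between PltLike and culture, stood at 0.317 ± 0.018 in PltLike and 0.262 ± 0.0188 in the culture, with CTC sample means of 0.264 to 0.301. There 20 of 24 PltLike cells lay above the highest culture cell, a separation that the choice of the region favours. Proximal X, in front of these runs, was 0.519 ± 0.0295 in PltLike, 0.487 ± 0.0244 in the culture and 0.499 to 0.544 in the CTC samples, which hold the PltLike value. At chr14:52958219-53528636, which covers 58 variable segments of Tcra, the alpha chain of the T-cell receptor, the line lies above the host. There the relative level was 0.423 ± 0.106 in PltLike, 0.440 ± 0.0416 in the culture and 0.0027 in naive WBC, so PltLike and culture differed by less than either SD over cells. Within PltLike the Il1rapl1 level went with the score at r = 0.0576 and with distal X at r = 0.252, both weak and given as a description. Y bins had a mean relative level of 0.00967 in PltLike, 0.0047 in the culture and 0.106 in naive WBC, with 14 of 24 PltLike cells above the highest culture cell. The naive WBC cells ran from 0.00473 to 0.298 under a label of female sex.

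**Figure D5:**
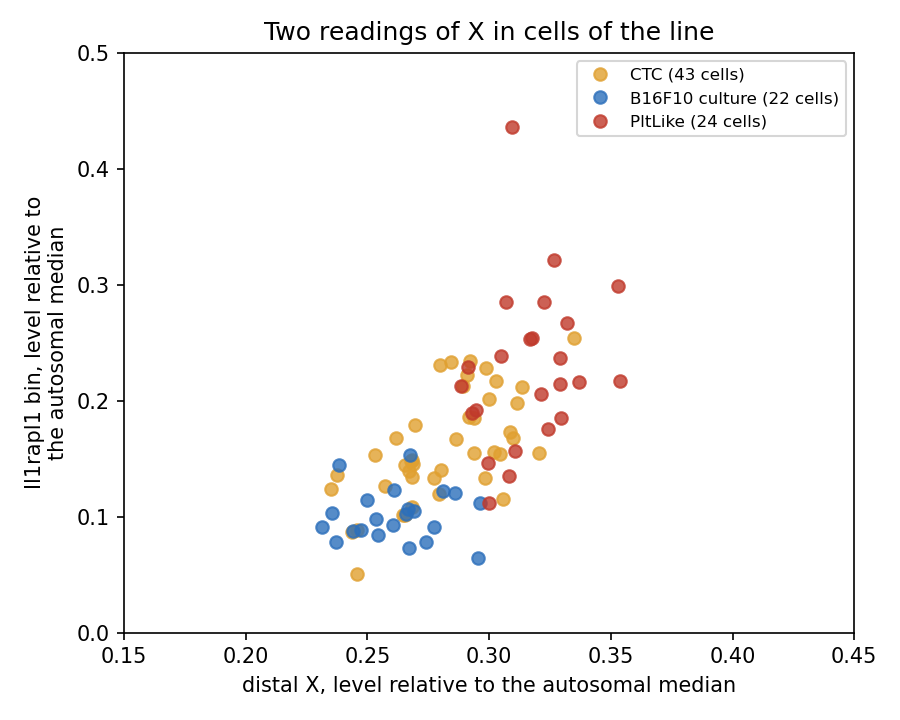
Relative level of the Il1rapl1 bin (vertical, 1 is the autosomal median of the cell) against that of distal X (horizontal) in single cells of PltLike (24), the culture (22) and CTC (43). PltLike cells lie at 0.112 to 0.436 on the vertical axis and culture cells at 0.0643 to 0.153, with CTC between and overlapping both.

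The noise of a cell, the median absolute log2 difference of neighbouring autosomal bins, was higher in PltLike than in the culture. It was 0.207 ± 0.0161 in PltLike, with a lowest cell at 0.182, a median of 0.204 and a highest cell at 0.25. In the culture it was 0.167 ± 0.00898, with cells from 0.153 to 0.187, and 22 of 24 PltLike cells were noisier than the noisiest culture cell. The mean PltLike noise lay above all 5 CTC sample means, which ran from 0.151 to 0.185, and above the 0.166 of naive WBC. Duplike cells, at 0.196, came nearest. Noise and score went together only weakly in PltLike, with r = 0.329 over 24 cells, a description.

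Genes of the melanocyte lineage, of growth signalling and of the cell cycle were read at the bin over each gene's midpoint in the RefSeq annotation of mm10. A bin is about 536 kb wide, so these are copy levels of the neighbourhood and say nothing of expression. Of 36 genes in 35 bins, 11 (30.6%) were at least 0.2 higher in PltLike and 0 were lower, against 8.94% and 8.5% of all bins. Among pigment and melanocyte genes 5 of 10 were higher, among growth signalling genes 1 of 11 and among cell cycle genes and tumor suppressors 5 of 15. The median difference was 0.11 over the 36 genes and 0.01 over all bins. List genes lay in gene-rich bins, with 16 of 36 in the 1030 autosomal bins richest in genes. Of those bins 120 were higher and 70 lower in PltLike, with a mean difference of 0.03, and the CTC samples gave 0.03 to 0.07 there. The part of gene density in the list counts was not tested.

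The largest differences were in bins that are lower in the culture than in naive WBC, or near it. Cdk4, the kinase that drives cells into S phase with D cyclins (chr10:127063535-127067288), stood at -0.06 ± 0.19 in PltLike and -0.43 ± 0.14 in the culture. Cdkn2a, which encodes the p16 and p19 tumor suppressors, shares its bin with its neighbour Cdkn2b on chromosome 4 (chr4:89274473-89294619 for Cdkn2a). That bin was at 0.11 ± 0.19 in PltLike and -0.22 ± 0.16 in the culture, with naive WBC at 0.06 and CTC samples 0.08 to 0.28 above the culture. Pmel, the protein of the melanosome fibrils (chr10:128695888-128720238), was at -0.12 ± 0.19 and -0.43 ± 0.12. Trp53, the p53 tumor suppressor (chr11:69580348-69591873), was at 0.18 ± 0.11 and -0.12 ± 0.14. For each of these 5 genes all 5 CTC samples lay above the culture, and cells of both sets overlapped. The genes were picked for their PltLike minus culture difference. CTC were set against the same culture cells, so this choice favours CTC values above the culture.

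At the other end no gene passed 0.2. Pik3ca, the catalytic subunit of PI3-kinase alpha, had the lowest difference, -0.19, at 0.15 ± 0.23 in PltLike and 0.34 ± 0.19 in the culture. Ccnd1, cyclin D1, differed by -0.14, Cdk6, the partner kinase of D cyclins, by -0.10, the receptor Kit by -0.07 and Nras by -0.07.

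Genes altered in the line differed in how far PltLike shared the change. In the culture 20 of 36 list genes were at least 0.2 from naive WBC, against 39.8% of all bins. Of these 20, 18 had the same sign in PltLike, 11 of them at 0.2 or more. The matching shares over all bins altered in the culture were not counted. These counts therefore describe the list and do not set its genes apart from other bins. Close to the host level were the pigment transporter Slc45a2 (0.00 in PltLike minus naive WBC against -0.28 in the culture), the melanocortin receptor Mc1r (-0.02 against -0.25), Pik3ca (0.03 against 0.22) and Cdk4 (-0.07 against -0.43), the first 2 named after their values were seen. The exceptions in sign were Cdkn2a and Cdkn2b, at -0.27 in the culture minus naive WBC and 0.06 in PltLike minus naive WBC. On the gained chromosome 6, Mitf, the master transcription factor of melanocytes, was 0.62 above naive WBC in the culture and 0.77 in PltLike. The receptor Met was 0.57 and 0.81 above it, and the kinase Braf 0.57 and 0.62. The cell cycle inhibitor Cdkn1b, also on chromosome 6, was 0.53 and 0.66 above. Off this chromosome, Cdkn1a, the p21 inhibitor, was 0.57 and 0.70 above naive WBC and the kinase Akt1 0.45 and 0.43 above. Among losses, Dct, an enzyme of melanin synthesis, was -0.77 in the culture and -0.65 in PltLike. Mdm2, the ligase that degrades p53, was -0.46 and -0.40, and the chromatin remodeller Arid1a -0.44 and -0.33.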

How the data were processed

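Single-cell DNA coverage of 648 cells was analysed. The authors deposited a normalised coverage signal per bin and cell. Tools named for the series, per the submitters' processing notes, are BWA, SAMtools, Picard, Trim Galore, featureCounts and HISAT2, with the build mm10. Settings, bin normalisation and versions are not given in the sources used here. Groups came from the labels and the deposited cell table.

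Dropping 338 bins that reached the ceiling of 10 in 1% of cells or more left 4120 autosomal and 256 X bins. Values plus a pseudocount of 0.1 were put on the log2 scale and the autosomal median of the cell was subtracted. Relative levels used no pseudocount. A chromosome level is the median of its bins. Runs used a running median of 5 bins, at least 10 bins long. Run and score code was tested on simulated data. No p-value was computed, since each side is 1 sample.

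The members, gene lists and limits were chosen with earlier results of these data known. State limits were set after the values were seen. Those of distal chromosome 8 replaced a first choice, given with its counts in the results. Genes named with values are the 5 with the largest and the 5 with the smallest PltLike minus culture difference and the 10 with the largest absolute culture minus naive WBC difference. A gene that this rule would name is not reported here. Alternatives covered pseudocount, ceiling, coverage level, centring, limits, run length, noisy cells and low bins. Software was matplotlib 3.10.9, scipy 1.17.1, pandas 2.3.3 and numpy 2.4.6 under Python 3.11.15.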

Additional observations from a re-analysis of the deposited data

Results flagged for a closer look

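The level of chromosome 7 in CTC sample C1N was -0.14 in log2, far from the nearest of the other 4 CTC samples at 0.01. PltLike stood at -0.02 and the culture at 0.03. Such a gap is found by chance in about 1 of 20 groups, and C1N holds 6 cells. Its 4 cells low on chromosome 13 stood at -0.24, -0.23, -0.22 and -0.19 on chromosome 7, and its other cells at 0.00 and 0.07. The C1N mean thus covers unlike cells.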

How the results depend on the processing

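No paired analysis was possible because each side is 1 sample, and no single replicate could be left out. Of 82 values under alternatives, 67 stayed within 1 SD or 1.5 times of the reported value and no difference of means changed sign. Some of the 67 could not change. Keeping only cells at the most common coverage level of the culture kept all 24 PltLike and 22 culture cells. Another centring cannot move score or noise, and the reported Il1rapl1 level already used no pseudocount. The median absolute chromosome difference cannot change sign, and its SD of 0.0905 is far wider than its value of 0.0120. All its alternatives thus counted as unchanged, among them 0.0239 with the mean of the bins and 0.0228 in cells of noise below the median of both sets. Bins past the limit numbered 232 at a limit of 0.3, 94 higher and 138 lower. The 8 runs became 4 with a pseudocount of 0.5, 1 at a limit of 0.3, 14 at 0.15, 2 with at least 20 bins and 4 without bins of low naive WBC level. Chromosomes off the own set numbered 41 at a limit of 0.2 and 2 at 0.5 in PltLike, and 30 and 3 in the culture. With only cells of noise below the median of both sets, 2 PltLike cells remained, with 0 chromosomes off, an Il1rapl1 level of 0.151 and a noise difference of 0.0183. The Il1rapl1 level was 0.321 with a pseudocount of 0.5. The combined state of chromosomes 3, 12 and 15 fell to 0 PltLike cells with stricter limits. Centring on chromosomes 2, 7 and 9 gave 448 bins higher and 337 lower, against 391 and 372, while a pseudocount of 0.5 (283 and 292), ceiling bins kept (403 and 412) and cells with a chromosome off left out (436 and 466) turned the balance to lower. The runs, 4 higher and 4 lower, became 3 and 7 in the cells of low noise. Without cells that have a chromosome off, an alternative added after seeing the data as was that on low bins, the median absolute chromosome difference was 0.0228, against 0.0120, and the X difference 0.0643. Depth is unknown, so bin noise limits single bins, and the numbers of cells limit the shares.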
